A study of Mus musculus with 27 samples.

Results

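Murine neural crest explants were compared with and without retinoic acid (RA), a signalling molecule made from vitamin A, after 24 h of exposure. The comparison used 8 of the 27 arrays of the series, chosen by their titles: 4 arrays of RA-treated explants and 4 arrays of control explants, all of 24 h. In the series, the dorsal neural tube of an embryo was split down the middle, so that one side could stay as control and the other could receive RA. Exposure to RA, at 1e-06 M in ethanol, lasted 6 h, 12 h, 24 h or 48 h. The labels do not say whether the controls received ethanol alone, how old the embryos were or how many embryos went into an array. They also do not say whether arrays of equal replicate number came from the same embryos. An explant is a piece of tissue in culture and can hold cells other than neural crest. In such bulk RNA, fewer cells of a type and less RNA per cell cannot be told apart.

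Neural crest cells leave the dorsal neural tube and form, among other tissues, peripheral neurons and glia, pigment cells and parts of the face and the heart outflow. RA enters the nucleus and binds heterodimers of the receptors RAR and RXR, which sit on DNA at pairs of short half-sites and switch from repression to activation. Cells limit the signal with the enzymes that degrade RA or turn its precursor back into retinol, and these enzymes are themselves targets of RA. Along the body axis RA acts on Hox genes, above all on those near the 3′ end of each cluster, and too much RA disturbs hindbrain and crest development.

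RNA was hybridised to Affymetrix MG_U74Av2 arrays, and 12422 probe sets (groups of probes for 1 transcript) were tested. A level below is a log2 RMA intensity, and a difference is the mean RA level minus the mean control level in log2 units. Within each 24 h group, 2 arrays correlated by 0.983 to 0.995 across probe sets. The number of arrays limits the precision. A probe set was called where its Benjamini-Hochberg adjusted p by limma, two-sided, lay below 0.05. The p-values rest on a spread estimated over all 27 arrays of the series, not on the 24 h arrays alone. That spread may be technical in part. With the 24 h arrays alone, 10 probe sets were called without and 33 with the pair as a block. After each group's mean was subtracted, the control and the RA array of a number deviated together (r = 0.487, 0.622, 0.442 and 0.229 across probe sets for numbers 1 to 4). The 12 other combinations lay between -0.505 and 0.211. The 0.211 was for control 3 with RA 4, and control 4 with RA 3 gave 0.182. These arrays were all scanned on day 5. For number 4 the check thus barely told the pair from a shared scan day. The numbers were therefore read as 4 pairs, and results are given without and with the pair as a block. Differences between pairs carried 65.8% of the variance among the 8 arrays on 3 degrees of freedom, and RA carried 11.5% on 1. The remaining 22.7% lay on 3. A term takes some share by its degrees of freedom even without an effect, so the 11.5% does not measure an effect of RA. The scanner records put pair 1 on scan day 6, pair 2 on day 3 and pairs 3 and 4 on day 5.

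Without a block, 19 of 12422 probe sets were called (0.153%), 18 higher in RA (0.145%) and 1 lower (0.00805%). They named 15 genes. With the pair as a block, 81 were called (0.652%), 58 higher (0.467%) and 23 lower (0.185%), and the 19 were all among them. The 81 named 69 genes, 49 higher and 20 lower. The median standard error of a difference fell from 0.13 without the block to 0.09 with it, and the smallest called difference from 0.57 to 0.41. For 57 of the 81 calls the 4 RA levels and the 4 control levels did not overlap, against 2.24% of all probe sets. The calls rest on differences between these same arrays, so the lack of overlap is no separate support for them. All 81 differed in one direction in 4 of 4 pairs. Such agreement alone was not rare, since 7.14% of all probe sets were higher and 7.17% were lower in RA in 4 of 4 pairs. Most of the changes were modest: 20 probe sets (0.161%) differed over 2-fold, 16 upward and 4 downward, and the median difference over all probe sets was -0.0042.

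**Figure D1:**
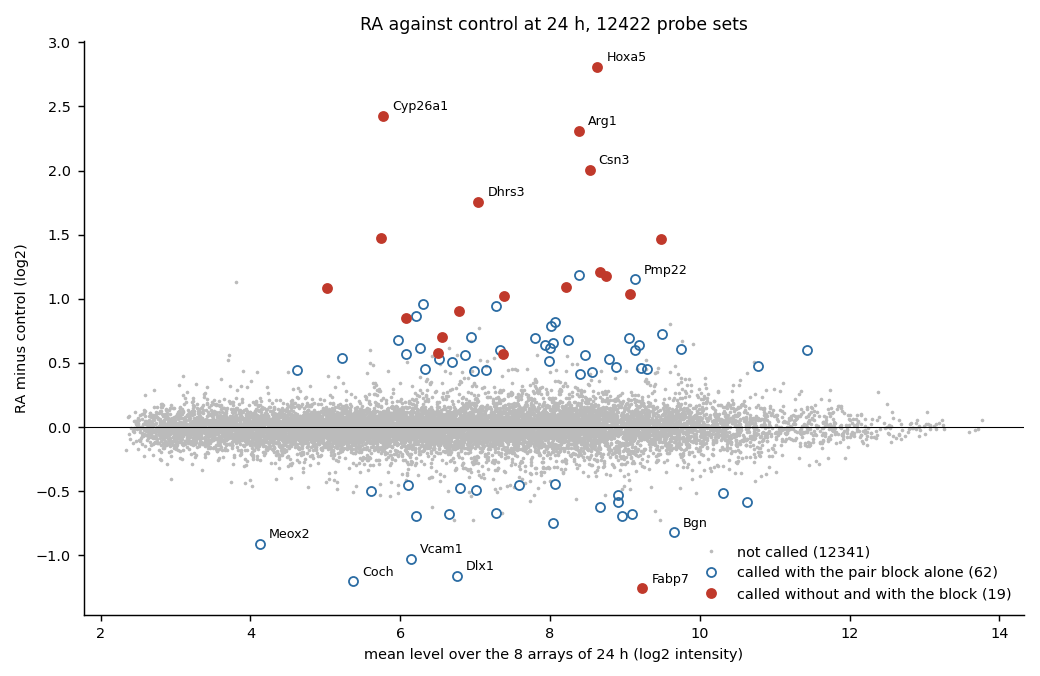
Each point is 1 of 12422 probe sets: the horizontal axis gives the mean level over the 8 arrays in log2 intensity, the vertical axis the difference between RA and control in log2 units. Filled circles mark the 19 calls without a block and open circles the 62 further calls with the pair block, and 14 of the 19 filled circles lie beyond 2-fold.

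The arrays were checked against markers of the labelled tissue. Members of the gene lists used here and below were chosen with earlier results of these data known. Counts by list therefore describe the lists and do not test them. Of 27 genes of the neural crest list, 18 had a mean control level above the array median. Snai2, a repressor that marks migrating crest, stood at the 83.8th percentile of the array in controls, the receptor tyrosine kinase Erbb3 at the 84.3rd, Twist1 at the 73.5th and Sox10, a factor of crest and its glia, at the 61.0th. Foxd3 (21.2nd) and the endothelin receptor Ednrb (9.84th) were dim. Transcripts of other tissues were present too. The sarcomeric actins Actc1, on a probe set of a kind that can pick up related actins, and Acta1 stood at the 99.4th and 97.9th percentile and the muscle regulator Myog at the 77.7th. With the block, 0.57% of 8251 genes were called higher and 0.242% lower. None of the 27 crest genes was called at 24 h without or with the block, which is near that share. Their median difference was -0.09 against -0.0016 over the 8251 genes. The 2 members farthest from 0 lay on opposite sides: Myc, a growth regulator, differed by 0.55 (higher in 4 of 4 pairs, adjusted p = 0.106 with the block) and Zic1, a factor of the neural plate border, by -0.53 (higher in 0 of 4 pairs, adjusted p = 0.112). Tfap2b, an AP-2 factor of the crest, differed by -0.39 (95% interval -0.58 to -0.20, adjusted p = 0.0673 with the block). Sox10 differed by -0.04 (95% interval -0.29 to 0.20), Snai2 by -0.17 (-0.48 to 0.15) and Erbb3 by 0.09 (-0.21 to 0.39).

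The enzymes Cyp26a1 and Dhrs3, which restrain RA, rose. No gene listed for its supply, transport or reception passed on its brightest probe set. Cyp26a1 (98320_at) encodes a cytochrome P450 that breaks RA down. It had control levels of 4.57, 4.60, 4.39 and 4.66 in pairs 1 to 4 and RA levels of 6.86, 7.05, 7.02 and 7.02. The lowest RA level thus stood more than 2 log2 units above the highest control level. The difference was 2.43 (SE 0.17, adjusted p = 4.94e-09 without and 2.95e-07 with the block), or 5.39-fold. The controls lay at the 18.9th percentile of the array, where RMA compresses differences. Dhrs3 (102797_at), which reduces retinaldehyde to retinol, had control levels of 6.17, 6.15, 6.22 and 6.11 and RA levels of 7.85, 7.81, 7.88 and 8.13. Its groups were tight and far apart, with a difference of 1.76 (3.38-fold, SE 0.19, adjusted p = 8.84e-06, and 7.70e-09 with the block). These were the only 2 calls among the 19 genes of retinoid metabolism and transport measured, beside 0.57% called higher and 0.242% called lower with the block of 8251 genes with 1 probe set each. The list's median difference was 0.04. Crabp2, which carries RA to its receptors, had control levels of 9.80, 9.76, 9.43 and 9.37 and RA levels of 10.33, 10.40, 10.26 and 9.96. The groups did not overlap, yet the difference of 0.65 (95% interval 0.34 to 0.96) missed the threshold with the block (adjusted p = 0.0572). Stra6, the membrane receptor for retinol-binding protein, differed by 0.34 (95% interval 0.12 to 0.55, adjusted p = 0.244). Crabp1, the other cellular RA-binding protein, differed by 0.04 (95% interval -0.33 to 0.41), and Aldh1a2, which makes RA, by -0.07 (-0.28 to 0.14). Of the 17 receptor and cofactor genes, each counted by its brightest probe set, 0 were called in either fit. A dim probe set of the nuclear receptor coactivator Ncoa6 (95351_at) was called with the block (0.45, adjusted p = 0.0441). The brighter set of Ncoa6 (95525_at) differed by -0.16 and was not called. Rara differed by 0.16 (95% interval 0.01 to 0.32) and Rarg by 0.10 (-0.12 to 0.32). The largest differences of that list were those of the corepressor Nrip1 (-0.39, adjusted p = 0.873) and the orphan receptor Nr2f1 (-0.33, adjusted p = 0.373).

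RefSeq promoter windows (GRCm38.p6) were searched for pairs of RAR half-sites, because receptor sites of this form are known from the promoters of RA targets. One form of half-site searched was AGGTCA, another form was AGTTCA, a further form was GGGTCA and the last form was GGTTCA. They were sought in direct repeat, on both strands, with 5, 2 or 1 bases between them, from 250 bases before to 50 after the start. A repeat with a spacer of 5 stood in 0.0974% of all 32851 windows, one with a spacer of 2 in 0.268% and one with a spacer of 1 in 0.222%. Counted by gene, the shares for spacers of 5, 2 and 1 were 0.115%, 0.311% and 0.263% of 27025 genes. The windows covered 47 of the 69 genes called with the block, and 2 of these genes had a match. The 250 bases before each start are shown, on the gene's strand, with the repeat in capitals.
Cyp26a1, chr19:37697558-37697807, plus strand: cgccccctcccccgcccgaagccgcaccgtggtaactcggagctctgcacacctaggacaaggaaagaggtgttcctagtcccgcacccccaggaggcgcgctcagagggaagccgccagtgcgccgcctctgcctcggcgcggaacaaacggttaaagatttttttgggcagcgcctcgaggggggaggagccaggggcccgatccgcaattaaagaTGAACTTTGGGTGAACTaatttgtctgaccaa
Tinagl1, chr4:130175123-130175372, minus strand: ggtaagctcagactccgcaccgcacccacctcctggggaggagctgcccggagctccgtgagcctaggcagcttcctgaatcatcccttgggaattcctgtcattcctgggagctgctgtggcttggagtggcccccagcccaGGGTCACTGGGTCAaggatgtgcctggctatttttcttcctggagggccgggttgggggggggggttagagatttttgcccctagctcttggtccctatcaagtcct
In Cyp26a1 the repeat had a spacer of 5, read on the opposite strand, and lay from -32 to -16 relative to the start. In Tinagl1, a secreted matrix protein gene, it had a spacer of 2 and lay from -107 to -94 relative to the start. Tinagl1 (160613_at) differed by 0.56 and was called with the block alone (adjusted p = 0.00296). A match is a string of letters and was not tested for binding. Sites farther from the start lay outside the windows.

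Hox genes are the homeobox factors that specify position along the body axis. Hoxa5, Hoxb5, Hoxb1, Hoxc4 and Hoxb4 rose. Hoxa5 (103086_at) showed the largest difference of all 12422 probe sets. Its control levels were 7.49, 7.28, 7.13 and 7.0 and its RA levels 10.33, 9.62, 9.88 and 10.31. Every RA array stood over 2 log2 units above every control, and the difference was 2.81 (7.01-fold, SE 0.26, adjusted p = 6.37e-07, and 7.53e-08 with the block). Hoxb5 (103666_at), of the same paralog group, went from 7.78, 7.81, 7.50 and 7.57 to 8.98, 8.45, 8.52 and 9.06. Its groups did not overlap either, and the difference was 1.09 (SE 0.17, adjusted p = 0.00181). The hindbrain gene Hoxb1 (93888_at) had control levels of 6.67, 7.22, 6.81 and 6.77 and RA levels of 7.75, 8.44, 7.59 and 7.79. Pair 2 was the highest in both groups, and the difference was 1.02 (SE 0.21, adjusted p = 0.0329). Hoxc4 (102660_at) had control levels of 5.78, 5.98, 5.32 and 5.51 and RA levels of 6.48, 6.66, 6.15 and 6.72. RA array 3 was the lowest of its group yet above every control, and the difference was 0.85 (SE 0.16, adjusted p = 0.0148). Hoxb4 (92255_at) differed by 0.61 and was called with the block alone (adjusted p = 0.0749 without and 0.00276 with it).

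By position in the cluster, 5 of 31 Hox genes were called with the block, all higher, beside 0.57% of all genes, and the median over the 31 was 0.01. The calls were not tested for a difference between positions. Among paralog groups 4 and 5, 4 of 6 genes were called and the median difference was 0.73. Among groups 1 to 3 it was 1 of 5, Hoxb1, with a median of -0.01. Of 8 genes of groups 6 to 8 and 12 genes of groups 9 to 13, 0 were called, and their medians were 0.03 and -0.01. Hoxb6, next to Hoxb5 in its cluster, differed by 0.32 (95% interval 0.09 to 0.55, adjusted p = 0.369 with the block), with groups that did not overlap. Mean control levels of the 12 posterior genes ran from 3.14 to 6.00, below the array medians of 6.55 to 6.63. Hoxa4 had 4 probe sets that disagreed. The brightest (97747_r_at) differed by -0.02 and stood for the gene in the counts above. Another (97745_at) had control levels of 6.34, 6.50, 6.55 and 6.51 and RA levels of 7.15, 6.75, 7.21 and 7.05. This set did not overlap between groups and differed by 0.56 (adjusted p = 0.0604 with the block). A further, dim set (97746_f_at) differed by 1.13 (adjusted p = 0.0994 with the block), and was the only probe set over 2-fold that was not called in that fit. The last (162402_r_at) differed by -0.16.

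**Figure D2:**
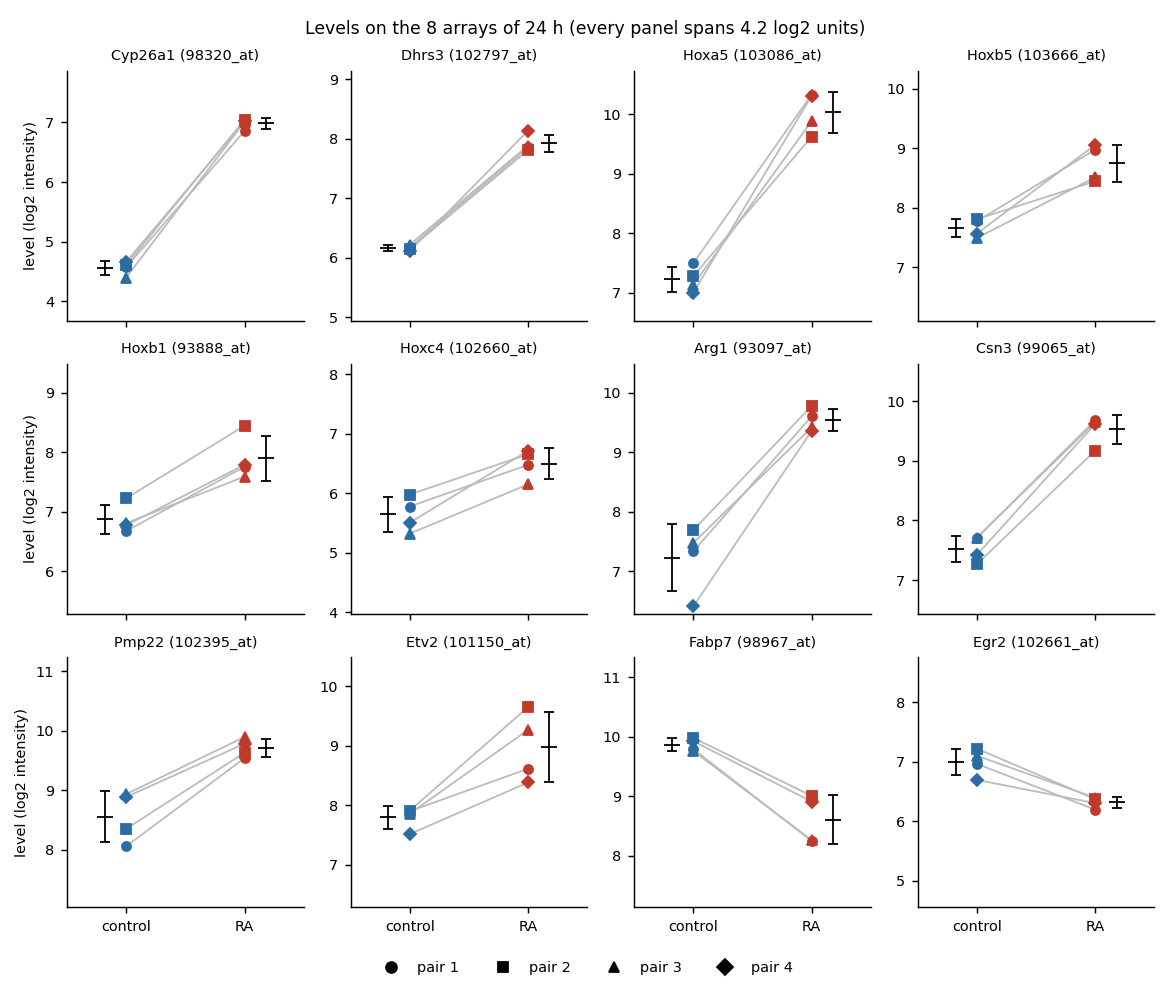
Levels in log2 intensity on the 8 arrays of 24 h for 12 probe sets: control in blue, RA in red, grey lines joining the arrays of a pair, and bars beside them giving mean ± SD (n = 4). In the 12 panels the 2 groups do not overlap; Pmp22, Etv2 and Egr2 were called with the pair block alone.

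Among the other homeobox and axial genes, 1 of 31 was higher and 3 were lower with the block, with a median of 0.0035. Over 8251 genes, 0.57% were called higher and 0.242% lower in that fit. Meox1 (98419_at), a homeobox gene of the somites, had control levels of 6.20, 6.65, 6.39 and 6.11 and RA levels of 7.05, 7.26, 7.52 and 7.12. It was higher in each pair, by 0.90 on average (SE 0.16, adjusted p = 0.0133, and 0.000465 with the block). Its relative Meox2 (99937_at) went the other way, from 4.68, 4.75, 4.49 and 4.41 to 3.55, 3.44, 3.47 and 4.22. Both groups were dim, at the 19.2nd and 9.49th percentile. The difference of -0.91 was called with the block alone (adjusted p = 0.0151), and RA array 4 lay close to the controls. Dlx1 (98394_at), a distal-less factor of the crest in the pharyngeal arches, had control levels of 7.83, 6.49, 7.83 and 7.18 and RA levels of 6.84, 5.70, 5.47 and 6.70. The groups overlapped, but RA was lower in each pair, with pair 3 farthest apart, and the mean of -1.16 was called with the block (adjusted p = 0.0274). Dlx2 differed by -0.54 (95% interval -0.93 to -0.16, adjusted p = 0.367) and Dlx5 by -0.30 (-0.54 to -0.05, adjusted p = 0.515). Egr2 (102661_at), a zinc finger factor of hindbrain segments and of myelinating Schwann cells, had control levels of 6.96, 7.22, 7.10 and 6.69 and RA levels of 6.19, 6.37, 6.39 and 6.30. All 4 RA levels lay below the controls, and the difference of -0.68 was called with the block (adjusted p = 0.0026). Foxc2, a forkhead factor of mesenchyme, had 2 probe sets, and both were called with the block, at 0.67 and 0.56 (adjusted p = 0.0256 for each). In the list for mesoderm, somite and skeletal muscle, Meox1 and Foxc2 were the 2 of 40 called higher and Meox2 the 1 called lower, and no muscle structural gene was called.

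Enzymes, adaptors and a milk protein were among the other rises. Arg1 (93097_at) encodes the urea cycle enzyme arginase 1. It had control levels of 7.34, 7.69, 7.48 and 6.41 and RA levels of 9.61, 9.78, 9.42 and 9.36. Control 4 was the lowest, and the groups lay far apart with or without it. The difference was 2.31 (4.96-fold, SE 0.23, adjusted p = 2.01e-06). Csn3 (99065_at), which encodes kappa-casein of milk, went from 7.71, 7.26, 7.71 and 7.42 to 9.69, 9.17, 9.65 and 9.62. The pairs differed by 1.91 to 2.20, and the mean difference was 2.01 (4.02-fold, SE 0.18, adjusted p = 4.51e-07). The ubiquitin ligase adaptor Spsb1 had 2 probe sets (161013_f_at and 161817_f_at), both called without a block at 1.20 and 1.18. Rin2 (160827_at), a Rab5 regulator, had control levels of 8.54, 8.72, 8.76 and 8.19 and RA levels of 9.84, 9.57, 9.37 and 9.57. The groups did not overlap, and the difference was 1.03 (SE 0.17, adjusted p = 0.00436). Traf3ip2, an adaptor of the interleukin-17 receptor, rose by 0.70 (adjusted p = 0.0133). Cck, the gut and brain peptide cholecystokinin, rose by 0.57 (adjusted p = 0.0329). Car2, a carbonic anhydrase, was called with the block alone (0.64, adjusted p = 0.0333), and so was Krt20, a keratin of epithelia (0.95, adjusted p = 4.96e-05). With Arg1, Car2 made 2 of 28 genes called on the urea cycle and amino acid list, beside 0.57% of 8251 genes called higher with the block. The other members of the list, with a list median of 0.03, were not called. Krt20 was 1 of 25 on the surface epithelium list. Its mean level per array over that list ran from 7.10 to 7.31 in controls and 7.25 to 7.51 in RA.

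Genes of endothelial and blood progenitors were called higher with the block. Etv2 (101150_at), an ETS factor that specifies these progenitors, had control levels of 7.90, 7.91, 7.86 and 7.52 and RA levels of 8.62, 9.65, 9.27 and 8.39. RA arrays 2 and 3 stood highest and the groups did not overlap. The difference of 1.18 passed with the block (adjusted p = 0.0189) and not without it (0.192). Lmo2 (96810_at), an adaptor of blood and vessel transcription complexes, had control levels of 7.66, 7.88, 7.70 and 7.39 and RA levels of 8.29, 8.94, 8.69 and 7.99. As for Etv2, RA arrays 2 and 3 were the highest, and the difference was 0.82 (adjusted p = 0.00213 with the block). A second probe set of Lmo2 overlapped between groups, differed by 0.29 and was not called (adjusted p = 0.237). Emcn (94997_at), an endothelial sialomucin, went from 7.51, 7.52, 7.85 and 7.89 to 8.26, 8.37, 8.22 and 8.39 (0.62, adjusted p = 0.028 with the block), and its groups did not overlap. Its 2 other probe sets differed by 0.04 and 0.27 and were not called. These 3 were the calls among 21 endothelial genes (0 lower), beside 0.57% of 8251 genes called higher. The list was made with earlier results of these data known, so this count is no test of it. The median of the list was 0.15 and 9 of the 21 were higher in 4 of 4 pairs, as were 619 of the 8251 genes. The mean level per array over the list ran from 6.36 to 6.49 in controls and 6.53 to 6.85 in RA, which did not overlap. That mean includes the 3 called genes, and a shift of the list without them was not tested. Defining genes of endothelium did not pass. Pecam1 differed by -0.01 (95% interval -0.17 to 0.16), Cdh5 by -0.12 (-0.40 to 0.16) and the VEGF receptor Kdr by 0.20 (-0.08 to 0.48). Pecam1 was well measured, at the 64.1st percentile in controls. Tal1, the blood stem cell factor, differed by 0.50 (adjusted p = 0.0535). Sox18, an endothelial SRY-box factor, had 1 probe set called with the block (104408_s_at, 0.96, adjusted p = 0.0175) and a second, brighter one that was not (0.35, adjusted p = 0.155). Angpt2, a ligand of the endothelial TIE receptor system, was called with the block at 0.46. Of 15 genes of blood and erythroid cells 0 were called, and the embryonic globins Hbb-y (0.47, adjusted p = 0.382) and Hba-x (0.25, adjusted p = 0.704) differed most. The part of a change in cell composition in these differences was not tested.

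Fabp7 (98967_at), the fatty acid binding protein of radial glia and early Schwann cell precursors, gave the one lower call without a block. Its control levels were 9.79, 9.98, 9.76 and 9.93 and its RA levels 8.25, 9.01, 8.26 and 8.91. The controls were tight, RA arrays 1 and 3 were the lowest, and all 4 RA levels lay below every control. The difference was -1.26, which is 2.39-fold lower (SE 0.23, adjusted p = 0.0148, and 8.36e-05 with the block). On the glia list, Fabp7 and Egr2 were called lower and Pmp22 higher with the block, of 15 genes with a median of 0.02. Over 8251 genes, 0.242% were called lower and 0.57% higher in that fit. Pmp22 (102395_at), a protein of peripheral myelin that many other cells express, had control levels of 8.06, 8.36, 8.94 and 8.89 and RA levels of 9.54, 9.63, 9.90 and 9.78. Its 4 pair differences lay between 0.89 and 1.48 around a mean of 1.15. The call rested on the block (adjusted p = 0.000151 with and 1.00 without it), and a second, dim probe set differed by 0.01. Among 21 neural tube progenitor genes, Fabp7 was the only one called. Sox2, a factor of neural progenitors, had control levels of 9.73, 9.85, 9.57 and 9.76 and RA levels of 8.87, 9.02, 9.43 and 8.97. Those groups did not overlap, and the difference of -0.66 (95% interval -1.12 to -0.19) was not called (adjusted p = 0.36 with the block). The intermediate filament gene Nes, at the 96.8th percentile in controls, differed by 0.04 (95% interval -0.16 to 0.23). Of 31 genes of neurons and 10 of melanocytes 0 were called in either fit, near the share over all genes. The largest differences were those of the neurofilament gene Nefm (-0.38, adjusted p = 0.106) and the growth cone gene Gap43 (-0.36, adjusted p = 0.55) on the first list. On the second they were those of Ednrb (0.32, adjusted p = 0.649) and the melanosome receptor Gpr143 (0.12, adjusted p = 0.999).

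Several secreted factors and regulators of signalling were called with the block alone. Wnt11 (103490_at), a ligand of the non-canonical Wnt pathway, had control levels of 5.61, 5.79, 5.57 and 5.56 and RA levels of 6.26, 6.58, 6.20 and 6.22. The groups lay apart, and the difference was 0.68 (adjusted p = 0.00116). Dkk1 (99881_at), a secreted inhibitor of canonical Wnt signalling, went from 6.25, 6.48, 6.56 and 6.92 to 5.74, 5.90, 5.96 and 5.83. All 4 RA levels were below all controls, and the difference was -0.70 (adjusted p = 0.00129). They were the 2 calls among 44 Wnt genes, with a median of 0.04. The list counts here stand beside 0.57% called higher and 0.242% called lower over 8251 genes with the block. Counts this small say little about a list. Gas1, a co-receptor for hedgehog proteins, was higher by 0.61 (adjusted p = 0.0215) and was the 1 call among 56 genes of FGF, hedgehog, Notch and ephrin signalling. Igfbp3, which binds insulin-like growth factors, was higher by 0.51 (adjusted p = 0.0361), and its second probe set differed by 0.10 and was not called. Mdk, the growth factor midkine, was among the brightest transcripts called (98.7th percentile in RA) and was higher by 0.60 (adjusted p = 0.0298). Cdkn2b, an inhibitor of cyclin-dependent kinases 4 and 6, had control levels of 7.59, 7.39, 7.63 and 7.87 and RA levels of 8.02, 8.82, 8.53 and 8.26. RA array 2 was the highest, and the difference was 0.79 (adjusted p = 0.0188). It was the 1 call among 31 cell cycle inhibitors and apoptosis genes, while 0 of 41 genes of the cell cycle and replication were called. The largest differences there were those of the retinoblastoma gene Rb1 (-0.33, adjusted p = 0.518) and of Cdk4 (0.29, adjusted p = 0.707). Rgs16, which ends G protein signals, was lower on both of its probe sets, with differences of -0.75 and -0.69 (adjusted p = 0.000857 and 0.0061). Id4, an inhibitor of helix-loop-helix factors, differed by -0.45 (adjusted p = 0.0281) and was the 1 of 47 TGF-beta and BMP genes called.

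Genes of the matrix and of adhesion were called lower with the block. Bgn (96049_at), the proteoglycan biglycan, had control levels of 9.88, 9.49, 10.66 and 10.21 and RA levels of 9.21, 8.49, 9.51 and 9.76. The groups overlapped, each pair was lower in RA, and the difference was -0.82 (adjusted p = 0.00727). A second probe set of Bgn differed by -0.16 and was not called. Tnc (101993_at), the glycoprotein tenascin C of crest migration paths, went from 9.10, 9.18, 9.41 and 9.11 to 8.83, 8.32, 8.52 and 8.78. The groups did not overlap, and the difference was -0.59 (adjusted p = 0.0444). A second probe set of Tnc overlapped between groups, differed by -0.41 and was not called (adjusted p = 0.115). Bgn and Tnc were 2 of 49 matrix genes, beside 0.242% of all genes called lower. None of the 49 was called higher, and 14 of the 49 had a difference above 0 against 4074 of 8251 genes. Tinagl1, a matrix protein gene outside this list, went the other way and was called higher with the block. Its call held in 4 of 4 fits that left out a pair, that of Bgn in 2 and that of Tnc in 1. The median of the list was -0.09. Of the matrix genes not called, Col1a2 differed by -0.73 (95% interval -1.13 to -0.33, adjusted p = 0.132), Ccn3 by -0.45 (-0.66 to -0.23, adjusted p = 0.0585) and Col7a1 by 0.43 (0.21 to 0.64, adjusted p = 0.0802). Among 41 adhesion receptors, Vcam1 and Itgav were called lower and 0 higher. Vcam1 (92558_at), a ligand of integrin α4, had control levels of 6.73, 5.93, 7.05 and 6.91 and RA levels of 5.70, 5.32, 5.45 and 6.04. Control 2 fell among the RA levels, but RA was lower in each pair, and the difference was -1.03 (adjusted p = 0.00186). Its 2 other probe sets differed by -0.25 and -0.06 and were not called. Itgav, the integrin subunit αv, differed by -0.51 (adjusted p = 0.0446), and its other probe sets by -0.28 and -0.09. Coch (103317_at), a secreted protein known from the inner ear, had control levels of 6.45, 4.90, 6.44 and 6.08 and RA levels of 5.11, 4.31, 4.60 and 5.03. Pair 2 was lowest in both groups, and the difference was -1.20 (adjusted p = 0.00296). Itm2a, a membrane protein gene of developing cartilage and muscle, was lower in each pair as well (-0.68, adjusted p = 0.014), with groups that overlapped.

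The calls differed in how they held when arrays were left out. Without a block, the calls of Hoxa5, Cyp26a1, Arg1, Csn3, Dhrs3, Hoxb5 and Rin2 held in each of 8 fits that left out 1 of the 24 h arrays, among 9 of the 19 probe sets that did. Hoxb1 kept its call in 2 of the 8 (highest adjusted p = 0.209, without RA 2), Hoxc4 in 3 (0.109, without control 3), Fabp7 in 4 (0.0962, without RA 1), Traf3ip2 in 4 (0.0739, without RA 2) and Meox1 in 5 (0.0922, without RA 3). The 2 probe sets of Spsb1 kept it in 6 and 3 of the 8 (highest 0.0711 and 0.105, both without control 4), and Cck in 0 (0.0679 to 0.165). With the block, 31 of the 81 calls held in each of 4 fits that left out a pair, and 10 held in 0. The 31 named 25 genes. Among them were Hoxa5, Hoxb5, Hoxb1, Hoxc4, Hoxb4, Cyp26a1, Dhrs3, Arg1, Csn3, Spsb1, Rin2, Traf3ip2, Meox1, Pmp22, Krt20, Lmo2, Wnt11 and Tinagl1 on the higher side, and Fabp7, Coch, Vcam1, Egr2, Dkk1 and 1 of the 2 sets of Rgs16 on the lower. Etv2, Cdkn2b, Gas1, Bgn, Itm2a and Dlx1 kept their calls in 2 of the 4, and Meox2, Sox18, Emcn, Car2, Igfbp3, Mdk, Angpt2, Id4, Itgav and Tnc in 1. The highest adjusted p in those fits was 0.0749 for Bgn, 0.121 for Etv2, 0.141 for Dlx1, 0.164 for Emcn and 0.341 for Tnc. Ctsb, Cck and Nfil3 kept theirs in 0.

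**Figure D3:**
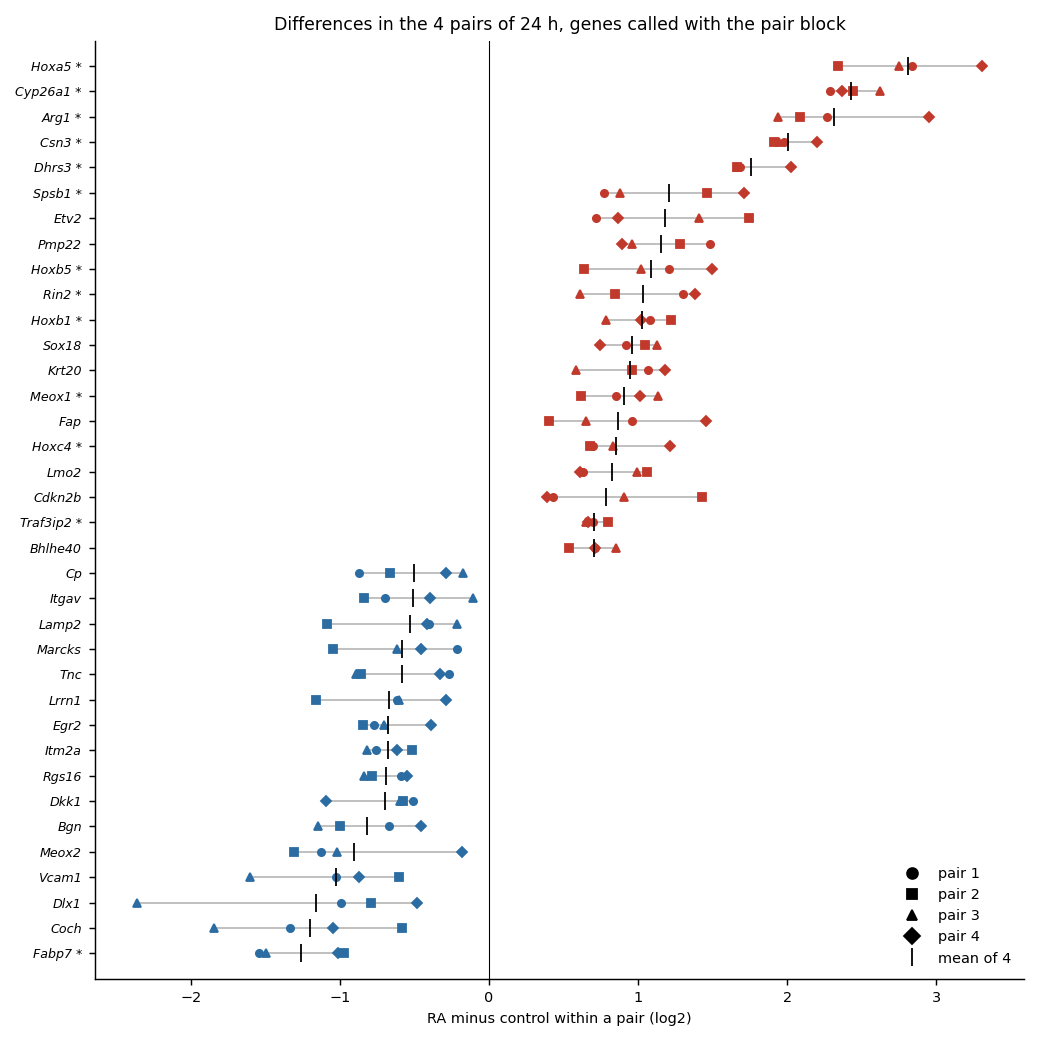
Differences between RA and control in log2 units within each of the 4 pairs (symbols) and their mean (vertical tick), for 20 genes called higher and 16 called lower with the pair block; a star marks genes also called without it. Within a gene the 4 pairs lie on one side of 0, and their spread is narrow for Cyp26a1, Csn3 and Traf3ip2 and wide for Dlx1 and Fap.

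With the block, 0.57% of 8251 genes were called higher and 0.242% lower, so a short list can hold 0 calls at that share. Of the 30 lists, 12 had no call in either fit. Besides those given above, they were cartilage and bone (0 of 18), smooth muscle and cytoskeleton (0 of 17), macrophages (0 of 17), endoderm (0 of 21), glycolysis and hypoxia (0 of 20) and cholesterol and fatty acid synthesis (0 of 20). Their medians lay between -0.07 and 0.07. The 2 members of each farthest from 0 were not called, although the groups did not overlap for Afp and Slc2a1. They were Omd (-0.17) and Bmp2 (-0.16) for cartilage and bone, and Actg2 (-0.48) and Csrp2 (-0.22) for smooth muscle. For macrophages they were Lgals3 (0.11) and Tyrobp (-0.10), and for endoderm Afp (-0.50) and Hhex (0.34). For glycolysis they were the hexokinase Hk2 (0.44) and the glucose transporter Slc2a1 (0.39), and for cholesterol Dhcr7 (0.34) and Sc5d (0.21). Their adjusted p with the block lay between 0.132 (Actg2) and 0.999. The matrix protease list had 1 call of 27, Ctsb, the lysosomal protease cathepsin B (0.46, adjusted p = 0.0277), on 1 of its 4 probe sets. The immediate early and stress list had 2 lower calls of 28, Egr2 and Nfil3, a bZIP repressor (-0.44, adjusted p = 0.0441). A second probe set of Nfil3 differed by -0.03 and was not called (adjusted p = 0.999).

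**Figure D4:**
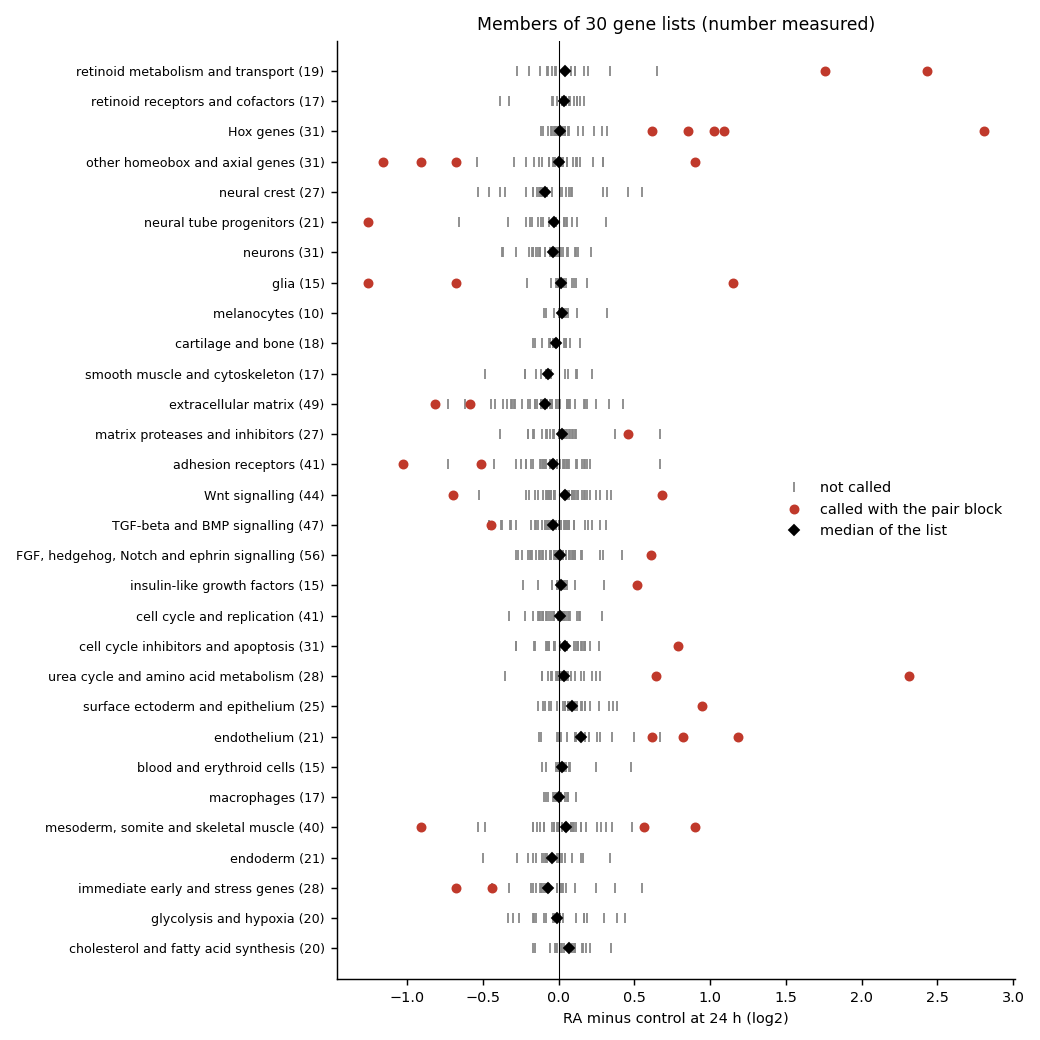
Each row is 1 of 30 gene lists, with the number of genes measured; ticks are the members' differences between RA and control at 24 h in log2 units, red circles the members called with the pair block and diamonds the medians. The list medians stay between -0.09 and 0.15, and the called genes farthest from 0 are Hoxa5, Cyp26a1, Arg1 and Dhrs3.

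The calls of 24 h were set beside the other times, which used other arrays. All times came from the same fit and shared the estimate of each probe set's spread. Calls at different times were therefore not independent, and a small spread favours a call at each of them. In fits with the pair as a block, the 58 probe sets called higher at 24 h had a median difference of 0.32 after 6 h, 0.40 after 12 h and 0.72 after 48 h. Above 0 were 45 of them at the first of these times, 57 at the second and 57 at the last. Also called higher at 6 h were 9 (15.5% of the 58 and 22.0% of the higher calls of 6 h), where 0.33% of all probe sets were. At 12 h it was 14 (24.1% and 100%), beside 0.113% of all, and at 48 h 42 (72.4% and 46.2%), beside 0.733%. Of the 23 called lower, 22, 22 and 23 were below 0 at the 3 times. Also called lower were 4 at 6 h (17.4% of the 23 and 5.19% of the lower calls of 6 h), 2 at 12 h (8.70% and 66.7%) and 6 at 48 h (26.1% and 18.8%), beside 0.62%, 0.0242% and 0.258% of all probe sets. The 48 h values depend on the array titled control 3, which its description gives as treated with RA. Without it, 2 complete pairs of 48 h remained, and 30 of the 58 (51.7%) and 4 of the 23 (17.4%) were also called at 48 h, with 56 and 23 on the same side of 0. Over all 12422 probe sets, the RA differences of 24 h correlated with those of 6, 12 and 48 h by 0.172, 0.336 and 0.435. Probe sets are not independent, and these values describe the arrays.

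Cyp26a1 was already called at 6 h and differed by 1.10, 2.05, 2.43 and 2.33 at 6, 12, 24 and 48 h in these fits. Dhrs3, Hoxa5, Arg1 and Csn3 were likewise called at all 4 times. Fabp7 differed by 0.01, -1.07, -1.26 and -0.83, and was called at the last 3 times. Without 48 h control 3 it differed by -0.63 at 48 h and was not called there (adjusted p = 0.226), while Cyp26a1, Dhrs3, Hoxa5, Arg1, Csn3 and Dkk1 kept their 48 h calls. Dkk1 was called lower at all 4 times, with -0.77, -0.64, -0.70 and -1.06. Emcn was called at 24 h and not at the other times, where it differed by 0.26, -0.13 and 0.24. Whether the RA effect at 24 h differed from that at another time was tested directly. Against 6 h and 12 h, limma called 0 probe sets in each case without a block (297 and 150 had an unadjusted p below 0.05). With the block, 1 (0.00805%) and 0 were called. The 1 was 2810025M15Rik (97374_at), with an effect of 0.71 at 6 h and -0.19 at 24 h (adjusted p = 0.0296). Against 48 h, 1 probe set (0.00805%) was called in either fit, 161049_at, which has no gene name in the annotation used. Its effects were 0.43, 0.81, 1.47 and 3.5 at the 4 times without a block, and 48 h exceeded 24 h by 2.02 (SE 0.30, adjusted p = 0.00883). Without 48 h control 3 it was called without the block (adjusted p = 0.022) and not with it (0.0831). For Fabp7, Emcn and the other genes named above, a difference between 24 h and another time was thus not shown.

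**Figure D5:**
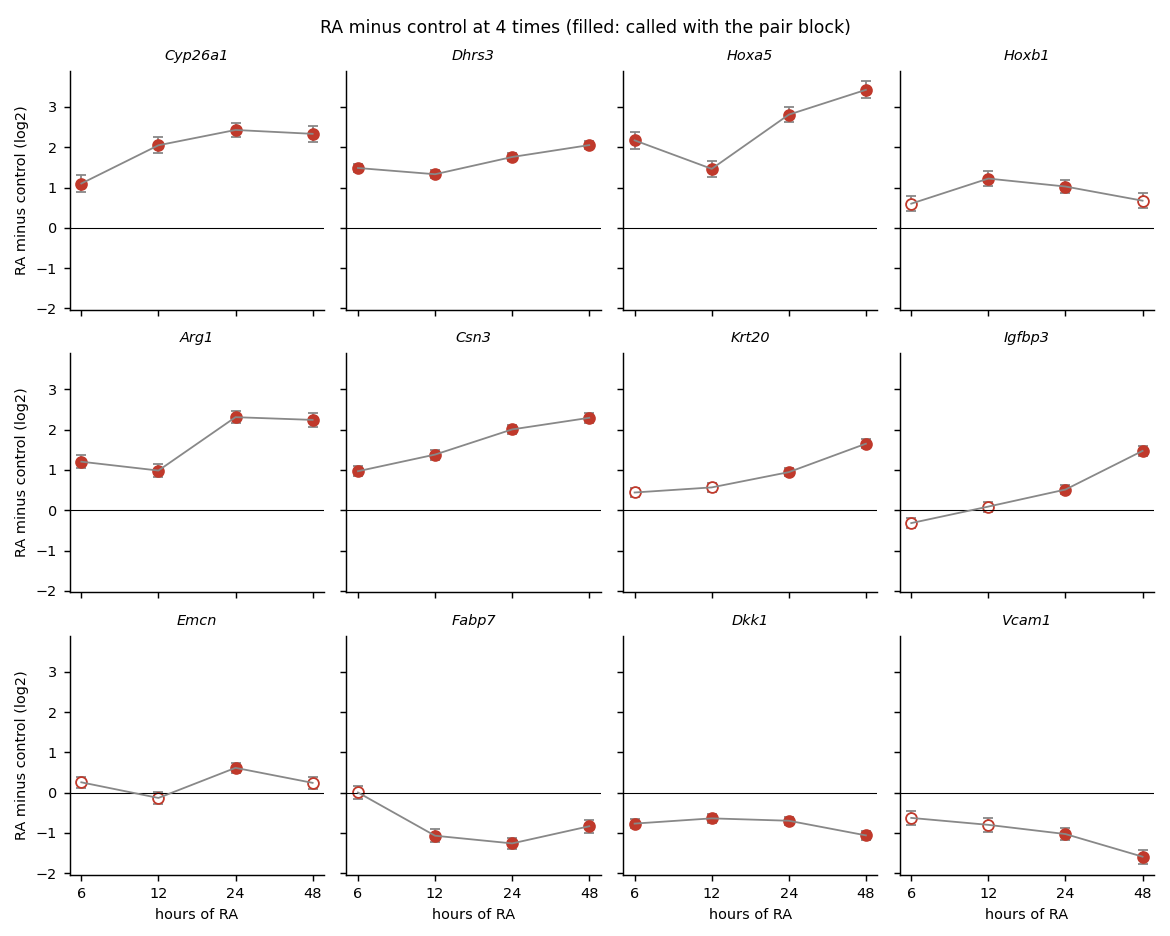
Differences between RA and control in log2 units (± SE) at 6, 12, 24 and 48 h of RA for 12 genes, from the fit with the pair as a block; filled circles were called at that time. Cyp26a1, Dhrs3, Hoxa5, Arg1, Csn3 and Dkk1 are filled at all 4 times, and Emcn at 24 h. The 48 h circle of Fabp7 would be open without the array titled 48 h control 3.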

How the data were processed

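The authors deposited linear intensity values for 27 arrays, made with RMA Express 0.2 per the labels, which also name GeneSpring for later analysis. RMA corrects background, normalises by quantiles and summarises probes; it gives no detection call. Log2 of the deposited intensities was taken here. Of 12488 probe sets, 66 controls were left out. The array annotation named 1 gene for 10833 of the rest, several for 396 and none for 1193. Groups follow the titles, and scan days and the 48 h pairs follow the scanner records as deposited. All 24 h pairs matched these records.

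The tests used limma 3.58.1 (R 4.3.3) over 27 arrays in 8 groups (moderated test, two-sided, Benjamini-Hochberg over 12422 probe sets), without a block and with the pair as a block. The fits were tested on simulated data. Alternatives included other normalisations, a filter on dim probe sets, scan day and left-out arrays.

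Genes named are those called without a block, the 12 highest and 12 lowest called with it, up to 6 called members of each of 30 lists, and the 2 largest differences of lists with none called. Others were named after their values were seen, as other members of these lists or other probe sets of a gene, and 1 gene called higher in both fits is not reported here. A gene with several probe sets was represented in lists by the brightest. Members and lists were chosen with earlier results of these data known. Promoter sequences are RefSeq's (GRCm38.p6). Tables and plots used Python 3.11.15, pandas 2.3.3 and matplotlib 3.10.9.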

Additional observations from a re-analysis of the deposited data

Results flagged for a closer look

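In 13 of 210 sets of 4 levels examined, 1 array stood far from the other 3, with a gap to the nearest that passed Dixon's criterion for 4 values. Chance gives about 1 such set in 20. RA array 2 was the one apart for 6 probe sets. It was low for Csn3 (9.17, the nearest other RA array at 9.62), Lrrn1 (6.35 against 7.13), a neuronal leucine-rich repeat protein gene, and Marcks (9.63 against 10.5), a protein kinase C substrate. It was also low for 104735_at (7.05 against 8.70), which has no single gene name. It was high for Traf3ip2 (7.15 against 6.83) and Wnt11 (6.58 against 6.26). Control 2, its partner, was low for Lamp2 (8.51 against 9.29), a lysosomal membrane protein gene, and high for Ncoa6 (4.79 against 4.32), a coactivator of nuclear receptors. Control 4 was low for Etv2 (7.52 against 7.86) and for the cyclin-dependent kinase gene Cdk4 (10.9 against 11.8). Control 1 was high for Hhex (6.44 against 6.18), a homeobox gene of endoderm and blood. RA array 1 was low for Cyp26a1 (6.86 against 7.02), still far above the controls, and RA array 4 was high for Meox2 (4.22 against 3.55).

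For 161049_at the effect of RA at 48 h exceeded that at 24 h by 2.02 log2 in the direct limma test, the one such call for these times. Without the array titled 48 h control 3 it was called without the block alone.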

How the results depend on the processing

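The number of probe sets called at 24 h was 19 without a block and 81 with the replicate block, the fit that pairs arrays of equal number at 24 h. With scan day as a block it was 50, with the 24 h arrays alone 10, and with those arrays alone and the replicate block 33. Leaving out 1 array of 24 h gave 10 (without control 4) to 17, and leaving out a pair in the fit with the replicate block gave 46 to 51 (46, 51, 48 and 51 for pairs 1 to 4). One array is titled 48 h control 3 but described as RA treated, and without it 22 were called, or 79 with the replicate block (chosen after seeing the data). Alternatives chosen after seeing the data gave 31 with the replicate block and pairs 3 and 4 (scan day 5) only, 27 with pairs 1 and 2 only, and 5 from scan day 5 alone. Centring on medians, cyclic loess, a filter on the 30% dimmest probe sets and an intensity trend gave 18 to 19. For the test of 24 h against 6 h, the replicate block gave 1 call instead of 0, and for 48 h against 24 h the scan day block gave 2 instead of 1. Of 105 probe sets followed over 25 alternatives, 3 changed sign in some fit, none of them called in any of the tests at 24 h. Sc5d (0.21) became -0.0363 with the replicate block without pair 4 and -0.1004 with pairs 1 and 2 only. Lgals3 (0.11) became -0.0461 without RA 2, -0.0801 and -0.0822 with the replicate block without pair 2 or 3, and ran from -0.0461 to 0.256 over the fits that left out 1 array. Nrip1 (-0.39) ran from -0.81 to 0.337 over those fits, the latter without control 2. The causes of these shifts were not tested. The 4 arrays a group and the absence of detection calls limit what can be said of dim probe sets such as Cyp26a1 in controls, Meox2 and the posterior Hox genes.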

Other observations

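The heart muscle genes Myh6 and Tnnt2, chosen after their values were seen, varied between arrays and were not called. Myh6, the alpha myosin heavy chain of the atria, had control levels of 4.38, 8.62, 6.02 and 6.08 and RA levels of 3.82, 3.82, 9.18 and 7.62 in pairs 1 to 4. RA was lower in pairs 1 and 2 and higher in pairs 3 and 4, and the difference of -0.17 had a 95% interval of -1.77 to 1.43. Tnnt2, cardiac troponin T, had control levels of 7.94, 8.95, 7.92 and 8.33 and RA levels of 7.80, 7.31, 9.16 and 8.82, with the same split of the pairs. Of the other heart genes among those listed for mesoderm, none was called: Tnni3 differed by 0.48, Tnnc1 by 0.35, Nkx2-5 by 0.09, Myl4 by 0.04, Actc1 by -0.12 and Myh7 by -0.48. Myh6 and Tnnt2 were highest in RA array 3 and, among controls, in array 2.

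The 4 pairs differed in how many probe sets were over 2-fold apart. In pair 1, 20 were higher and 5 lower in RA, in pair 2 it was 20 and 60, in pair 3 it was 21 and 11, and in pair 4 it was 60 and 16. Over all probe sets the differences of 2 pairs correlated by -0.1 to 0.291, the highest for pairs 1 and 4 and the lowest for pairs 2 and 4.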
